A study of Homo sapiens with 24 samples.

Results

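The genes described here encode 10 core proteins of stress granules: G3BP1, G3BP2, CAPRIN1, USP10, UBAP2L, TIA1, TIAL1, FXR1, FXR2 and ATXN2. They were chosen by name, as the rows of both deposited count tables whose Ensembl gene identifiers map to these symbols, and all 10 were found among the 57992 genes used. Cytosolic RNA and ribosome footprints had been sequenced from K562 cells, an established human myelogenous leukaemia line, in which CRISPR interference (a guide RNA that brings a repressor to a promoter) was induced with doxycycline. The guide sgDDX3 was aimed at DDX3X, which encodes an RNA helicase of translation initiation, and sgGal4 was the control guide. Both guides were sampled on day 0, on day 3 and on day 14. Every combination of guide, day and assay had 2 libraries, which gives 12 groups and 24 libraries. All groups, controls included, carry the same doxycycline treatment in the labels, and whether the day 0 cells had received it is not given there. The labels do not say that the 2 libraries of a group came from separate cultures, so the spread behind the p-values may be technical. That spread was estimated over all groups of the assay or assays tested together, not from the compared groups alone.

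Stress granules are assemblies of mRNA and RNA-binding proteins that form in the cytoplasm when translation initiation stalls, typically after phosphorylation of the initiation factor eIF2 alpha, and dissolve when translation resumes. G3BP1 and its paralogue G3BP2 nucleate them by binding released mRNA. CAPRIN1 and USP10 compete for the same domain of the G3BP proteins and act in opposite directions, CAPRIN1 favouring condensation and USP10 opposing it. DDX3X is itself a known granule component. The values are levels of RNA and of ribosome occupancy in cells for which the labels state no added stressor; granules were not measured.

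Depth per library was 1.03e+07 to 4.33e+07 counts in the RNA assay and 6.22e+06 to 1.52e+07 in the footprint assay. Levels are given as CPM, the counts per 1e+06 of a library after scaling within each assay. The check of the guide came out as labelled: DDX3X RNA was 39.0 and 33.7 CPM in the 2 sgDDX3 libraries at day 3 against 185.3 and 173.8 CPM in sgGal4. The log2 difference of the guides (sgDDX3 over sgGal4) was -2.29 in RNA at day 3 (edgeR quasi-likelihood test, adjusted p = 1.60e-11) and -0.72 at day 14 (adjusted p = 4.03e-05), so the depletion was smaller at day 14. Of the K562 markers, GATA1 (160.6 to 191.5 CPM in RNA) and TFRC (624.2 to 1106 CPM) were abundant in all 12 RNA libraries. The globins HBZ (59.6 to 108.8 CPM) and HBG2 (24.2 to 43.2 CPM) were present in each. The globin HBE1 was low (0.452 to 3.98 CPM), and the fetal globin HBG1 reached at most 0.288 CPM. The summed RNA of the 8 K562 markers was 1153 to 1299 CPM in sgGal4 and 1183 to 1219 CPM in sgDDX3 at day 3, and 1167 to 1182 CPM against 1270 to 1272 CPM at day 14. TFRC is the largest part of this sum. Of 7 such markers tested, 4 fell with sgDDX3 in RNA at day 3, and 2 fell and 1 rose at day 14, against 14.1% and 14.6% of all genes. Their log2 differences of the guides ran from -2.26 to 0.14 at day 3 (median -0.38) and from -2.37 to 0.30 at day 14 (median -0.12). The summed RNA of 10 markers of other cell types was 99.8 to 101 CPM in sgGal4 and 91.4 to 98.2 CPM in sgDDX3 at day 3, and 107 to 114 CPM against 95.05 to 98.9 CPM at day 14, with MS4A1 (B cells) and COL1A2 (fibroblasts) at 0 in all 12 and the epithelial genes EPCAM and KRT8 detected. Of the 6 tested in RNA, none passed at day 3 (edgeR; 1 at an unadjusted p under 0.05), and 1 fell at day 14 (EPCAM, -0.30, adjusted p = 0.0384). The part of these marker shifts in the results below was not tested.

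With DDX3X depleted, most core genes did not pass the test against the control. The genes that passed in RNA or footprints at day 3 or day 14 (ATXN2, FXR2 and G3BP1) were higher with sgDDX3. Each of these tests passed 1 of 10, and the share of all genes passing in any of them was not computed. ATXN2 gained ribosome footprints at both days, by 1.49-fold at day 3 and 1.37-fold at day 14. FXR2 RNA was 1.25-fold higher at day 3, and G3BP1 RNA was 1.16-fold higher at day 14. No core gene passed in translational efficiency, which sets a gene's footprints against its own RNA, and in these bulk samples fewer cells expressing a gene and less RNA per cell cannot be told apart. At day 3, 1 of 10 core genes passed in RNA (an adjusted p under 0.05 over all genes tested) against 14.1% of all genes, and 1 of 10 in footprints against 3.80%. Of all genes that passed at day 3, 1405 were higher and 1169 lower in RNA, and 306 higher and 446 lower in footprints. At day 14, 1 of 10 passed in RNA against 14.6% of all genes (1543 higher and 1131 lower). In footprints it was 1 of 10 against 3.40% (417 higher and 255 lower). For translational efficiency, 0 of 10 passed where 5.14% of all genes did at day 3 and 1.75% at day 14. By the unadjusted p under 0.05, edgeR gave 2 core genes at each of these days, and DESeq2 passed 1 (ATXN2) at day 3 and 0 at day 14.

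Footprint estimates of the core genes were mostly positive, with only ATXN2 past the threshold. Footprint differences were positive for 8 of 10 core genes at day 3 and for 9 of 10 at day 14, with medians of 0.12 and 0.15 on the log2 scale beside 0.02 and 0.00 for all genes tested. RNA differences were positive for 6 of 10 and 7 of 10 genes, with medians of 0.07 and 0.12 beside -0.01 and -0.01 for all genes. For translational efficiency the medians were 0.17 at day 3 and 0.13 at day 14 beside 0.05 and 0.02 for all genes, and 8 of 10 estimates were positive at each day. At day 0 the estimates were already positive for 7 of 10 genes in footprints (median 0.04), 6 of 10 in RNA (median 0.02) and 7 of 10 in translational efficiency (median 0.03). Within the sgDDX3 footprint libraries of day 3, replicate 2 lay above replicate 1 for 8 of the 10 genes, by a median of 0.24 on the log2 scale.

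**Figure D1:**
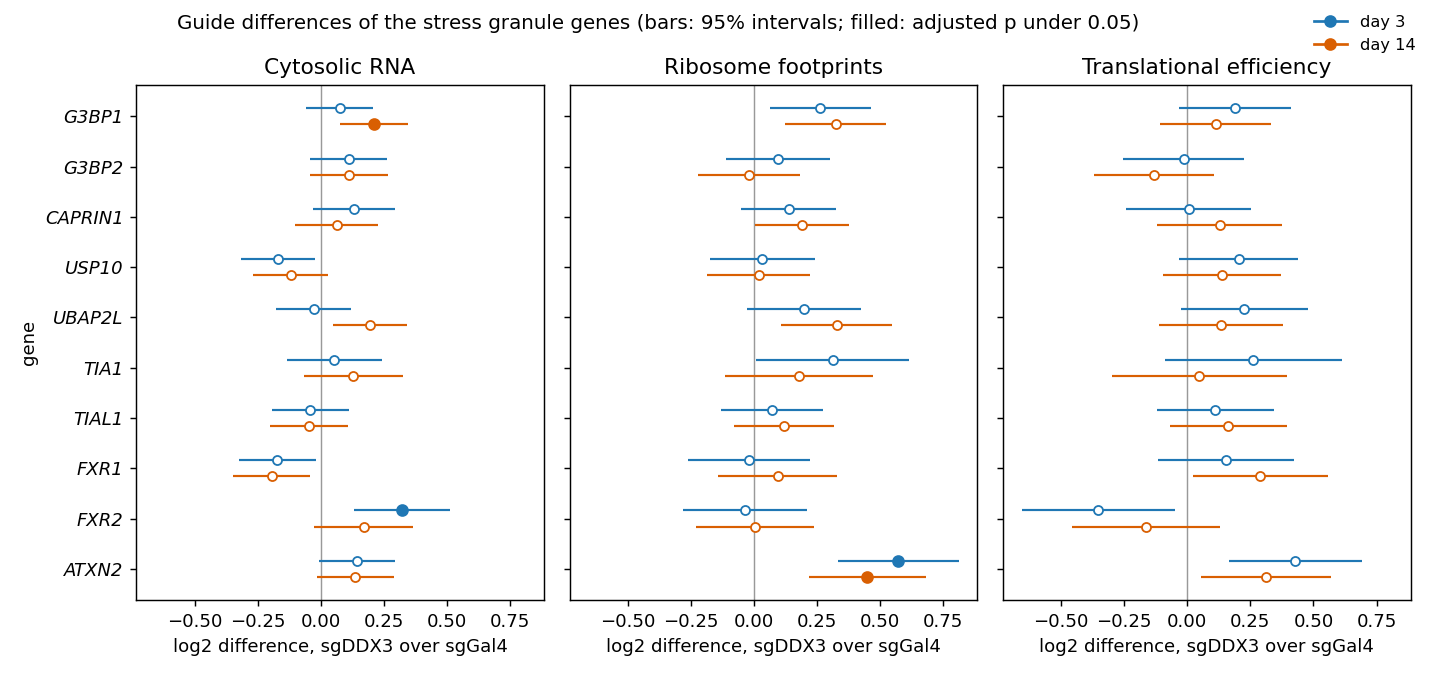
Log2 difference of the guides (sgDDX3 over sgGal4) for each core gene in RNA, footprints and translational efficiency at day 3 and day 14, with 95% intervals from the edgeR fit of all libraries. Filled points passed an adjusted p of 0.05: FXR2 and G3BP1 in RNA, and ATXN2 in footprints at both days, while no point is filled for translational efficiency.

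G3BP1 (ENSG00000145907, chromosome 5, 151771954 to 151812785 of GRCh38), the main nucleator of the granules, was higher with sgDDX3 at day 14. Its RNA was 269.9 and 258.2 CPM in the 2 sgDDX3 libraries and 226.0 and 229.9 CPM in the 2 sgGal4 libraries. The groups did not overlap, and the log2 difference was 0.21 ± 0.06 (SE; edgeR adjusted p = 0.0308). With 2 libraries a group, groups can lie apart by chance, here and for the genes below. The share of all genes whose groups did not overlap was not computed. Footprints at day 14 were 324.6 and 305.4 CPM with sgDDX3 against 253.7 and 249.7 CPM with sgGal4. These also lay apart, but the difference of 0.32 ± 0.09 missed the threshold (adjusted p = 0.0766). At day 3 the sgDDX3 footprint libraries were at 250.9 and 298.9 CPM and the sgGal4 libraries at 227.1 and 231.3 CPM, a difference of 0.26 ± 0.09 (adjusted p = 0.140). It passed in 1 of 9 alternatives, without sgDDX3 footprint replicate 1 (0.38, adjusted p = 0.0490), and was 0.12 (adjusted p = 0.625) without sgDDX3 footprint replicate 2. The day 14 RNA call was lost without sgDDX3 replicate 1 (0.18, adjusted p = 0.116), sgGal4 replicate 1 (0.21, 0.144) or sgGal4 replicate 2 (0.22, 0.147), when the filter on low counts was dropped (0.18, 0.181), and when only the day 14 libraries were fitted (0.21, 0.146).

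G3BP2 (chromosome 4, 75642786 to 75724437), which can stand in for G3BP1 in granule assembly, did not pass between the guides at any day. Its RNA at day 14 was 134.3 and 137.2 CPM with sgDDX3 and 131.6 and 120.3 CPM with sgGal4, and its footprints were 177.8 and 171.7 CPM against 179.8 and 174.6 CPM. The footprint difference was -0.02 at day 14, with a 95% interval from -0.22 to 0.18, and 0.09 at day 3. The log2 ratio of G3BP1 to G3BP2 footprints, whose change can be read although the level is not corrected for length, was 0.87 and 0.83 in the sgDDX3 libraries at day 14 and 0.50 and 0.52 in sgGal4. At day 3 it was 0.65 and 0.67 against 0.54 and 0.45. The guides were already apart at day 0, at 0.71 and 0.60 against 0.50 and 0.51. In RNA the ratio overlapped between the guides at day 3 and day 14. At day 0 the guides lay apart in RNA too, at 0.958 and 0.895 with sgDDX3 against 0.849 and 0.848 with sgGal4. The ratio was not tested.

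**Figure D2:**
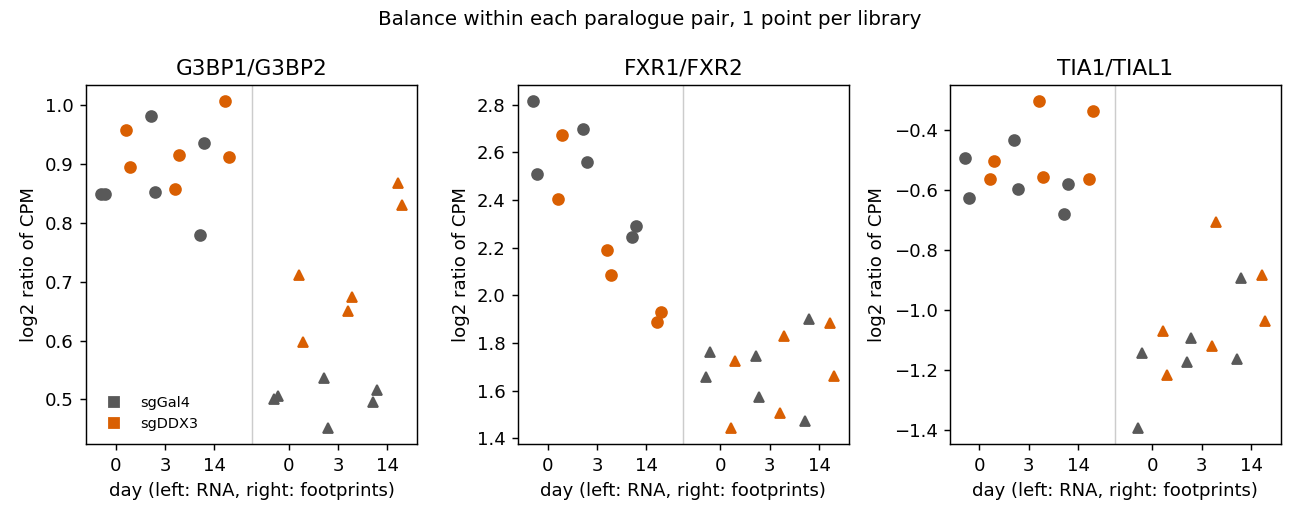
Log2 ratio of CPM within each paralogue pair, 1 point per library, by day, with RNA as circles and footprints as triangles (grey sgGal4, orange sgDDX3). G3BP1 over G3BP2 footprints were higher with sgDDX3 at all 3 days, and FXR1 over FXR2 RNA was lower with sgDDX3 at day 3 and day 14.

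None of the 3 partners of the G3BP proteins passed between the guides. CAPRIN1, an RNA-binding protein that joins the G3BP proteins and promotes condensation, had footprints of 406.7 and 381.5 CPM with sgDDX3 at day 14 and of 331.1 and 359.2 CPM with sgGal4. The difference was 0.19 ± 0.09 (edgeR adjusted p = 0.270). USP10, a deubiquitinase that keeps the G3BP proteins from condensing, had RNA of 111.1 and 122.0 CPM with sgDDX3 at day 3 against 130.8 and 130.4 CPM with sgGal4. Its RNA difference was -0.17 ± 0.07 (adjusted p = 0.122), and its footprint difference was 0.03 at day 3 and 0.02 at day 14.

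UBAP2L, an arginine-methylated protein that acts with G3BP1 in starting granule assembly, resembled G3BP1 at day 14 in direction without passing. Its RNA was 208.3 and 201.1 CPM with sgDDX3 and 176.4 and 180.9 CPM with sgGal4 (difference 0.20 ± 0.07, edgeR adjusted p = 0.0696). Its footprints were 188.0 and 166.4 CPM against 145.4 and 136.9 CPM (0.33 ± 0.10, adjusted p = 0.103). The groups did not overlap in either assay. At day 3 the RNA difference was -0.03, and the change of 0.22 ± 0.10 between the days was the only one among the core genes with an unadjusted p under 0.05 in RNA (adjusted p = 0.603).

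TIA1 and TIAL1, paralogous RNA-binding proteins with prion-like tails that hold back translation of their targets, did not pass at any day. TIA1 footprints at day 3 were 37.9 and 49.7 CPM with sgDDX3 and 35.0 and 36.0 CPM with sgGal4. The sgDDX3 libraries lay far apart with both above sgGal4, and the difference of 0.31 ± 0.14 had an adjusted p of 0.250 (edgeR). TIAL1 stayed closer, at 82.3 and 81.2 CPM against 78.7 and 76.8 CPM in footprints at day 3 (0.07 ± 0.09) and at -0.04 in RNA. TIA1 had the fewest counts behind its values after FXR2, 225 to 615 per footprint library.

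FXR2 (ENSG00000129245, chromosome 17, 7591230 to 7614897), a paralogue of the fragile X protein FMRP that binds RNA and polysomes, rose in RNA at day 3 with no matching difference in footprints. Its RNA was 43.5 and 42.3 CPM in sgDDX3 and 34.4 and 34.4 CPM in sgGal4, and the groups did not overlap. The RNA difference was 0.32 ± 0.09 (edgeR adjusted p = 0.0211). Its footprints were 32.3 and 30.6 CPM against 30.1 and 34.6 CPM, and here the groups overlapped (-0.03 ± 0.11, adjusted p = 0.916). Translational efficiency was accordingly estimated at -0.35 ± 0.15, the lowest of the 10 core genes, without passing (adjusted p = 0.197). At day 14 RNA was 47.3 and 47.9 CPM against 43.8 and 41.2 CPM (0.17 ± 0.09, adjusted p = 0.251). The day 3 call was lost without sgDDX3 RNA replicate 1 (0.30, adjusted p = 0.123), sgGal4 replicate 1 (0.32, 0.142) or sgGal4 replicate 2 (0.33, 0.0954).

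FXR1, the other paralogue of FMRP on the list, leaned the opposite way in RNA. At day 14 it was at 175.1 and 182.5 CPM with sgDDX3 and at 207.7 and 201.6 CPM with sgGal4, a difference of -0.19 ± 0.07 that missed the threshold (edgeR adjusted p = 0.0847), and at day 3 the difference was -0.17 ± 0.07 (adjusted p = 0.126). FXR1 footprints were 124.8 and 114.9 CPM against 104.6 and 120.1 CPM at day 14 (0.09 ± 0.11), where the groups overlapped. The log2 ratio of FXR1 to FXR2 RNA was 2.19 and 2.08 with sgDDX3 and 2.70 and 2.56 with sgGal4 at day 3. It was 1.89 and 1.93 against 2.24 and 2.29 at day 14, while at day 0 the guides overlapped (2.40 and 2.67 against 2.81 and 2.51). In footprints this ratio overlapped between the guides at all 3 days, as the plot of paralogue balance shows. The ratio was not tested.

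ATXN2 (ENSG00000204842, chromosome 12, 111452214 to 111599673), a polyglutamine protein that binds the poly(A)-binding protein and whose repeat is expanded in an inherited ataxia, had the largest footprint difference of the core genes between the guides, at both days. Its footprints at day 3 were 68.9 and 81.9 CPM with sgDDX3 and 50.4 and 51.2 CPM with sgGal4. At day 14 they were 79.4 and 91.3 CPM against 64.8 and 60.0 CPM. The groups did not overlap at either day, and the log2 difference was 0.57 ± 0.11 at day 3 (edgeR adjusted p = 0.0155) and 0.45 ± 0.11 at day 14 (adjusted p = 0.0371). Its RNA was 86.8 and 91.8 CPM against 80.8 and 80.4 CPM at day 3, and 98.9 and 97.6 CPM against 92.8 and 86.4 CPM at day 14. The RNA differences of 0.14 ± 0.07 at both days did not pass (adjusted p = 0.207 and 0.236). At day 0 its footprints were 53.0 and 50.5 CPM with sgDDX3 and 50.3 and 44.2 CPM with sgGal4, a difference of 0.13 ± 0.11. The guides thus also lay apart, by less, in footprints at day 0 and in RNA at day 3 and day 14.

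The translational efficiency of ATXN2 lay at the threshold at day 3. The ratio of its mean footprint CPM to its mean RNA CPM was 0.636, 0.631 and 0.696 in sgGal4 at day 0, day 3 and day 14, and 0.686, 0.844 and 0.869 in sgDDX3. The efficiency difference at day 3 was 0.43 ± 0.13 with an adjusted p of 0.05003 (edgeR), and it passed in 3 of 14 alternatives: with DESeq2 (0.42, adjusted p = 0.0416), with a block that pairs footprint and RNA libraries by number (0.42, 0.0470) and without sgDDX3 footprint replicate 1 (0.54, 0.0114). In the others the adjusted p ran up to 0.354, reached at an estimate of 0.29 without sgDDX3 footprint replicate 2. At day 14 it was 0.31 ± 0.13 (adjusted p = 0.284). The footprint call of day 3 was lost without sgDDX3 replicate 2 (0.43, adjusted p = 0.107), sgGal4 replicate 1 (0.54, 0.149) or sgGal4 replicate 2 (0.57, 0.105), and when only the day 3 libraries were fitted (0.56, 0.0742). The call of day 14 ended when either sgDDX3 library was left out (0.54, adjusted p = 0.0874, for replicate 1 and 0.34, 0.221, for replicate 2). It likewise ended without either sgGal4 library (0.51, 0.0794, for replicate 1 and 0.38, 0.152, for replicate 2) and with only the day 14 libraries (0.45, 0.118).

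**Figure D3:**
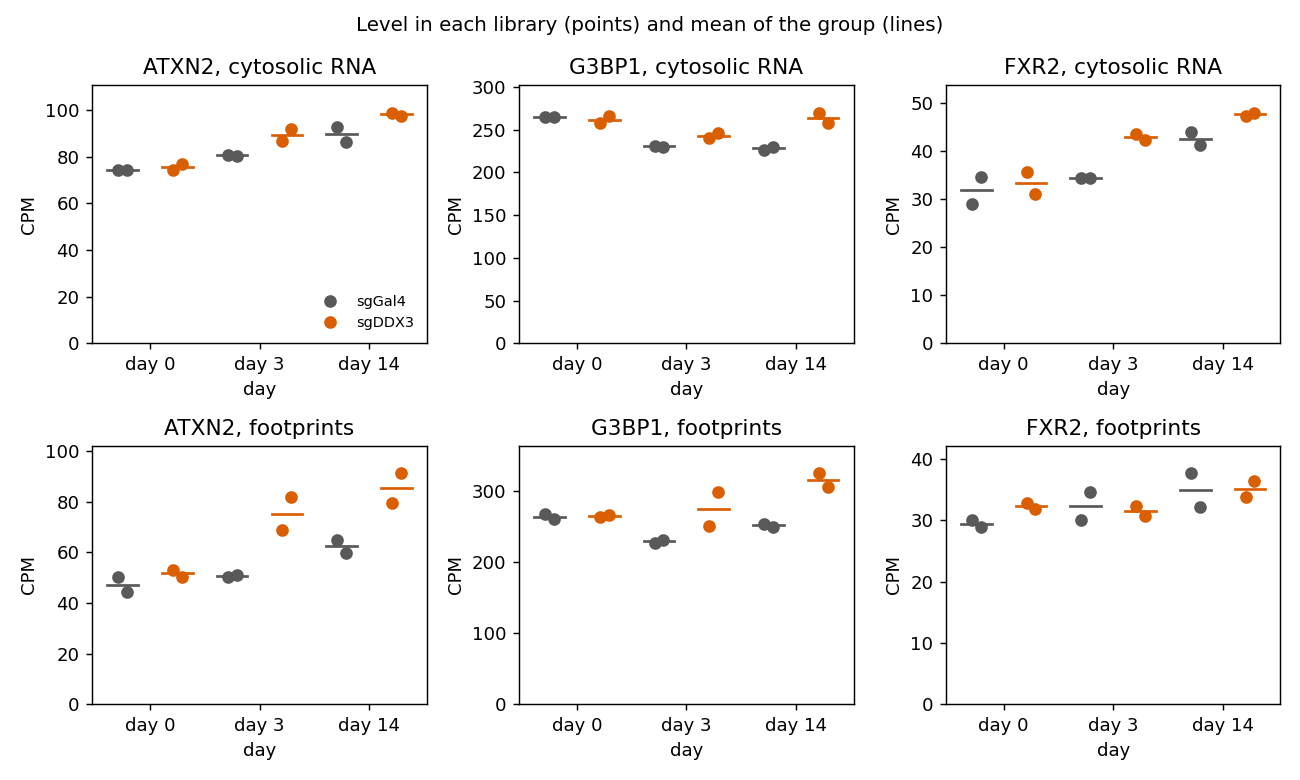
CPM of ATXN2, G3BP1 and FXR2 in each RNA library (top) and footprint library (bottom) by day, with points for libraries and lines for the mean of each group (grey sgGal4, orange sgDDX3). ATXN2 footprints with sgDDX3 (68.9 and 81.9 CPM at day 3) lay above sgGal4 (50.4 and 51.2 CPM), and FXR2 differed in RNA at day 3 while its footprints overlapped.

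The sequences upstream of the 2 genes whose RNA passed between the guides are shown so that the promoters of these genes can be compared; no binding or promoter activity was measured. Promoter sequences of RefSeq starts (GRCh38.p14) were at hand for 9 of the 10 core genes, all but ATXN2, with 17 transcription starts. The 250 bases before the start of G3BP1 are chr5:151771704-151771953 on the plus strand, and those of FXR2 are chr17:7614898-7615147 on the minus strand, each 5′ to 3′ with the searched motifs in capitals.
G3BP1: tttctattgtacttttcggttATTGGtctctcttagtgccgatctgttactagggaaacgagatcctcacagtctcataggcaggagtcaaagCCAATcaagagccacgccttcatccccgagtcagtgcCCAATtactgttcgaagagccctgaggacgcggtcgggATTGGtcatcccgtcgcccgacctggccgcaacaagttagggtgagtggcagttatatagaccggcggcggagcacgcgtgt
FXR2: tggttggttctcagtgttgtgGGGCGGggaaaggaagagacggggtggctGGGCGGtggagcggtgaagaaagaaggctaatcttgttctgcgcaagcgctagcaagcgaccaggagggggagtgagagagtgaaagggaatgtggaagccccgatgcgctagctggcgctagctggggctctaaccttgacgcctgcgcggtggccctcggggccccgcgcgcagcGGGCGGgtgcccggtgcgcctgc
The capitals mark CCAAT in G3BP1 and GGGCGG in FXR2, in either orientation. G3BP1 holds 4 CCAAT matches, starting 157 and 120 bases before the start on the gene's strand and 229 and 82 bases before it on the other. FXR2 holds 3 GGGCGG matches, 229, 200 and 23 bases before its start. Over both strands and counting overlapping matches, CCAAT is in 32.0% and GGGCGG in 42.6% of all 35116 RefSeq starts, so neither is rare. Among the core genes, CCAAT was found for FXR1, G3BP1 and G3BP2, and GGGCGG for 7 of 9, with G3BP1 and TIAL1 the exceptions. The other motifs searched were CCGGAAG (CAPRIN1 and USP10; 8.52% of all starts), GCATGCGC (G3BP2; 2.63%), TGACGTCA (G3BP2; 1.65%) and TATAAA (TIA1; 10.7%). No motif was shared by the 2 genes shown.

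At day 0, and for the change from day 3 to day 14, no core gene passed between the guides. DDX3X RNA at day 0 was already 175.4 and 185.3 CPM with sgDDX3 against 214.6 and 203.3 CPM with sgGal4, a log2 difference of -0.21 (edgeR adjusted p = 0.999) that passed when only the day 0 libraries were fitted (-0.21, adjusted p = 0.0264). Of the core genes at day 0, 0 of 10 passed in RNA (0.00547% of all genes), in footprints (0.0101%) and in translational efficiency (0.00673%), with edgeR and with DESeq2, and none had an unadjusted p under 0.05 with edgeR. The RNA differences at day 0 ran from -0.09 to 0.09 and the footprint differences from -0.14 (G3BP2) to 0.13 (FXR2) on the log2 scale. The test of whether the guide difference changed from day 3 to day 14 passed for 0 of 10 in RNA (0.164% of all genes) and 0 of 10 in footprints (0.126%), with edgeR and DESeq2. Only UBAP2L in RNA had an unadjusted p under 0.05. DDX3X itself passed this test in both assays (a log2 change of 1.57 for RNA and of 1.43 for footprints). For ATXN2 footprints the change between the days was -0.12, with a 95% interval from -0.46 to 0.21, which includes a smaller, an equal and a larger difference at day 14.

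The control cells alone also showed RNA changes in the core genes over time, with both G3BP genes lower and FXR2 and ATXN2 higher by day 14. From day 0 to day 14 in sgGal4, 2 of 10 rose (FXR2 and ATXN2) and 2 fell (G3BP1 and G3BP2), against 16.2% of all genes. From day 0 to day 3, 1 of 10 fell (G3BP2), against 5.68% of all genes. Both comparisons use the same day 0 libraries. In footprints 0 of 10 passed at day 3 (1.26% of all genes) and at day 14 (2.47%), with edgeR and DESeq2, with 1 and 3 at an unadjusted p under 0.05 with edgeR.

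G3BP1 RNA in sgGal4 was 264.2 and 264.8 CPM at day 0, 230.8 and 230.1 CPM at day 3 and 226.0 and 229.9 CPM at day 14. The libraries of both later days lay below those of day 0, by -0.20 ± 0.06 at day 3 (edgeR adjusted p = 0.0713) and by -0.21 ± 0.06 at day 14 (adjusted p = 0.0268). With sgDDX3 the same gene was at 257.3 and 265.9 CPM at day 0, 239.6 and 246.4 CPM at day 3 and 269.9 and 258.2 CPM at day 14. Mean G3BP1 footprints were 263.9 CPM at day 0 and 251.7 CPM at day 14 in sgGal4, and 264.4 and 315.0 CPM with sgDDX3. The part of the control's change in the guide difference of day 14 was not tested. G3BP2 RNA in sgGal4 was 146.7 and 147.0 CPM at day 0, 116.9 and 127.4 CPM at day 3 and 131.6 and 120.3 CPM at day 14. Its differences were -0.27 ± 0.07 (adjusted p = 0.0325) and -0.23 ± 0.07 (adjusted p = 0.0409). The G3BP1 difference at day 3 passed in 2 of 9 alternatives, with DESeq2 (-0.20, adjusted p = 0.0312) and with only the days compared (-0.20, 0.0355), and in none of the 4 fits without a single library (adjusted p from 0.182 to 0.332). Its call at day 14 was lost without sgGal4 RNA replicate 1 or 2 of day 0 (-0.22 and -0.21) or replicate 1 or 2 of day 14 (-0.21 and -0.23), and without the filter (-0.20). The G3BP2 call of day 3 was lost without replicate 1 or 2 of day 0 (-0.28 and -0.27) or replicate 1 of day 3 (-0.21). The G3BP2 call of day 14 was lost without replicate 1 or 2 of day 0 (-0.24 and -0.22), replicate 1 or 2 of day 14 (-0.30 and -0.16), and without the filter (-0.21).

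FXR2 RNA in sgGal4 was 29.0 and 34.5 CPM at day 0, 34.4 and 34.4 CPM at day 3 and 43.8 and 41.2 CPM at day 14. The day 14 libraries were above all others of this guide (0.42 ± 0.09 from day 0, edgeR adjusted p = 0.00466). The call was lost without replicate 1 of day 0 (0.29, adjusted p = 0.162) or replicate 1 of day 14 (0.37, 0.0569). ATXN2 RNA rose from 74.1 and 74.5 CPM at day 0 to 92.8 and 86.4 CPM at day 14 (0.27 ± 0.07, adjusted p = 0.0174). The call was lost without replicate 1 or 2 of day 0 (0.25 and 0.27) or replicate 1 of day 14 (0.21). ATXN2 footprints of the control lay in the same direction (0.40 ± 0.11, adjusted p = 0.0704).

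**Figure D4:**
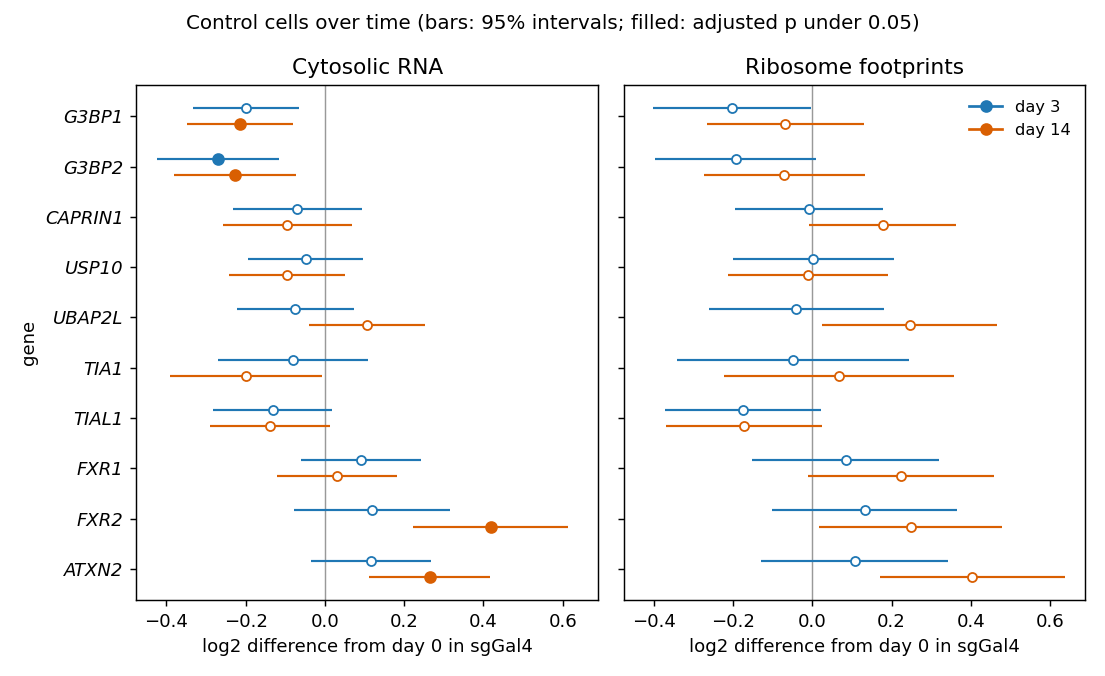
Log2 difference from day 0 in the control cells (sgGal4) at day 3 and day 14 for each core gene, with 95% intervals; filled points passed an adjusted p of 0.05. G3BP1 and G3BP2 lay to the left and FXR2 and ATXN2 to the right of 0 in RNA at day 14, and no footprint point is filled.

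Across all 12 libraries of an assay, the highest level of a core gene was at most 2.07 times its lowest. The same range over all genes was not computed. The highest RNA level of a gene was 1.19 times (G3BP1) to 1.65 times (FXR2) its lowest. In footprints this ratio ran from 1.15 times (USP10) to 2.07 times (ATXN2), with UBAP2L next at 1.66 times. Levels of different genes are not compared, because gene lengths were not used. The counts behind the values ranged from 427 (FXR2) to 16350 (CAPRIN1) per RNA library and from 192 (FXR2) to 4667 (CAPRIN1) per footprint library.

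Other proteins of the same granules were mostly higher where they passed. Of 30 further stress granule RNA-binding proteins, 8 rose and 1 fell in RNA at day 3, and 6 rose and 1 fell at day 14, where 14.1% and 14.6% of all genes passed (1405 higher and 1169 lower at day 3, 1543 higher and 1131 lower at day 14). By smallest p these were led at day 3 by PRRC2A (0.40 ± 0.07, edgeR adjusted p = 0.000598) and the cytoplasmic poly(A)-binding protein PABPC4 (0.33 ± 0.07, adjusted p = 0.00241), and at day 14 by the helicase MOV10 (0.52 ± 0.09, adjusted p = 0.000683) and the antiviral protein ZC3HAV1 (0.36 ± 0.07, adjusted p = 0.00107). In footprints 4 rose at day 3 and 3 at day 14 and none fell, beside 3.80% and 3.40% of all genes passing, and MOV10 led at day 14 (97.0 and 97.9 CPM with sgDDX3, 59.3 and 59.3 CPM with sgGal4; 0.72 ± 0.11, adjusted p = 0.00431). The medians of this list were 0.10 and 0.12 in RNA and 0.07 and 0.10 in footprints. In translational efficiency 1 rose and 1 fell at day 3, where 5.14% of all genes passed (659 lower and 104 higher). None passed at day 14 in edgeR (1.75% of all genes), with 5 at an unadjusted p under 0.05.

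AGO2, the slicing Argonaute, passed in opposite directions in RNA and footprints. It comes from a list of 16 proteins of P-bodies, the other cytoplasmic mRNA granules. AGO2 RNA was 416.7 and 431.3 CPM with sgDDX3 at day 3 and 268.0 and 260.5 CPM with sgGal4, while its footprints were 28.1 and 26.8 CPM against 45.2 and 48.0 CPM. RNA was thus higher (0.68 ± 0.06, edgeR adjusted p = 3.63e-07) and footprints lower (-0.76 ± 0.10, adjusted p = 0.00128), and translational efficiency fell by 1.44 on the log2 scale at day 3 (adjusted p = 4.63e-09) and by 0.85 at day 14 (adjusted p = 4.93e-05). Translational efficiency passed for 5.14% of all genes at day 3 and for 1.75% at day 14. No P-body gene of the list other than AGO2 fell in translational efficiency. The decapping enzyme DCP2 rose in it at day 3 (0.39 ± 0.11, adjusted p = 0.0408), and without single libraries the value ran from 0.33 to 0.43 and passed in 1 of 8 fits (adjusted p from 0.0484 to 0.239). Of the 16, 1 rose and 1 fell in RNA at day 3 and 2 rose at day 14, against 14.1% and 14.6% of all genes. In footprints 1 fell at day 3 (3.80% of all genes passed) and none passed at day 14 (3.40%; 5 at an unadjusted p under 0.05 in edgeR).

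Among 7 kinases, phosphatase subunits and the substrate of the eIF2 alpha pathway, which sets off granule assembly, 2 fell in translational efficiency at each day. Of all genes, 5.14% passed at day 3 (659 lower and 104 higher) and 1.75% at day 14 (204 lower and 56 higher). EIF2AK4, the kinase GCN2 that senses uncharged tRNA, was at 102.3 and 99.6 CPM in RNA with sgDDX3 at day 3 against 63.9 and 59.6 CPM, and at 14.5 and 12.5 CPM in footprints against 19.0 and 21.1 CPM. Its efficiency difference was -1.28 ± 0.15 at day 3 (edgeR adjusted p = 2.03e-06) and -0.89 ± 0.14 at day 14 (adjusted p = 0.000559). EIF2AK1, the haem-regulated kinase, differed by -0.58 ± 0.11 at day 3 (adjusted p = 0.00111). At day 14 its difference was -0.48 ± 0.11 (adjusted p = 0.0167), and the values without single libraries ran from -0.57 to -0.39 with adjusted p from 0.00769 to 0.133. In RNA 2 of the 7 rose and 1 fell at day 3, and 2 rose at day 14, against 14.1% and 14.6% of all genes. In footprints 2 fell at day 3 and 1 fell at day 14, against 3.80% and 3.40% of all genes.

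Of 9 factors that help granules dissolve, 7 passed the filter on low counts. In RNA 1 rose at day 3, the autophagy kinase ULK1 (0.43 ± 0.08, edgeR adjusted p = 0.000686), and 2 rose and 1 fell at day 14, against 14.1% and 14.6% of all genes. The gene that fell was ZFAND1 (-0.59 ± 0.11, adjusted p = 0.000663), which brings the ATPase VCP to granules. In footprints none of the 7 passed at day 3 (3.80% of all genes), with 2 at an unadjusted p under 0.05 in edgeR. At day 14, 1 rose in footprints (3.40% of all genes), VCP itself (0.65, edgeR adjusted p = 0.0189). Its value ran from 0.60 to 0.69 without single libraries, and the call was not kept in all of these fits. None of the 7 passed in translational efficiency at day 3 (5.14% of all genes) or day 14 (1.75%). At an unadjusted p under 0.05 (edgeR) there were 2 and 0. In these 4 further lists no gene passed for the change of the guide difference from day 3 to day 14. Of all genes, 0.164% passed for this change in RNA and 0.126% in footprints. PRRC2B, on the list of further granule proteins, was not matched to a row and is not analysed here.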

How the data were processed

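Cytosolic RNA and ribosome footprints were measured in 12 groups of 2 libraries. For each assay the authors deposited 1 table of raw counts, whole numbers of reads for every gene. Tools named in the submitters' processing notes are STAR 2.7.5a, Bowtie2 2.4.1, cutadapt 3.4 and DESeq2, with the build GRCh38. The sources used here do not give the counting tool, annotation or strand setting, so reads of overlapping genes may be shared. Of 58037 genes, 45 Y copies of pseudoautosomal genes were left out; 98.2% of the rest had a symbol.

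Scaling used TMM factors (trimmed mean of M values) computed within an assay, and genes were filtered with filterByExpr (minimum count 10). Tests were edgeR 4.0.16 quasi-likelihood tests (R 4.3.3, limma 3.58.1) with the 12 libraries of an assay in the fit, or all 24 for translational efficiency (the interaction of guide and assay), and Benjamini-Hochberg adjustment over all tested genes. They were also run on counts simulated with dispersions fitted to these data, which cannot show how the tests behave on the real libraries. Alternatives were DESeq2 1.42.0, its size factors, no filter, only the days compared, a replicate block and leaving out each library. Figures used Python 3.11.15 and matplotlib 3.10.9. The biological coefficient of variation, common to all genes, came to 6.13% (RNA) and 9.99% (footprints).

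The core genes, the lists and the tests were chosen with earlier results of these data known. The text names all core genes, DDX3X, and up to 4 genes of each other list with the smallest p.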

Additional observations from a re-analysis of the deposited data

Results flagged for a closer look

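The guide difference of DDX3X changed between the days by the test of that change. In RNA, sgDDX3 over sgGal4 was 1.57 higher on the log2 scale at day 14 than at day 3 (edgeR adjusted p = 7.16e-06), and in footprints 1.43 higher (adjusted p = 0.00579). No core stress granule gene passed the same test.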

How the results depend on the processing

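Of 9 core gene results that passed, none changed sign in 81 alternative values, and 37 of these no longer passed; 2 libraries a group leave little precision. Without single libraries the number of core genes passing ran from 0 to 1 in RNA at day 3 and at day 14, 0 to 2 in footprints at day 3, 0 to 0 in footprints at day 14, 0 to 1 in translational efficiency at day 3, 0 to 1 in control RNA at day 3 and 0 to 2 at day 14. Of 138 core gene results that passed in no fit, 123 of 1467 alternative values had the opposite sign, the largest 0.116 in size.

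With only the days compared, 0 core genes passed in RNA at day 14 and in footprints at day 3 and day 14, and 2 in control RNA at day 3. Without the low-count filter, 0 passed in RNA at day 14 and 2 in control RNA at day 14. DESeq2 passed 1 core gene in translational efficiency at day 3 and 2 in control RNA at day 3.

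Over all genes, leaving out the filter gave at day 0 33 calls (RNA), 282 (footprints) and 22 (translational efficiency), 1594 and 1221 in footprints at day 3 and day 14, 119 (RNA) and 471 (footprints) for the change between days, and 963 and 1249 in control footprints. Only the days compared gave 74, 124 and 22 at day 0, 1495 in RNA at day 14, 151 and 241 in footprints, 99 in translational efficiency at day 14, 13 for the RNA change between days, 1759 in control RNA at day 3 and 407 in control footprints at day 3. DESeq2 gave 16 in footprints at day 0 and 81 for the footprint change between days, where its size factors in edgeR gave 39. Without single libraries the counts over all genes ran, in RNA, from 0 to 1 at day 0, 1342 to 1962 at day 3 and 1076 to 3201 at day 14. In footprints they ran from 0 to 6, 121 to 713 and 143 to 497, in translational efficiency from 1 to 3, 455 to 965 and 109 to 304, and for the change between days from 10 to 339 in RNA and 17 to 147 in footprints. In the control they ran from 101 to 672 and 983 to 1340 in RNA and from 12 to 91 and 43 to 337 in footprints.

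Replicate numbers were shared by the groups but are not known to pair libraries: deviations of same-numbered libraries of the 2 guides correlated at -0.16 to 0.41 (4 of 6 over 0.1), and those of footprint and RNA libraries at -0.04 to 0.21 (4 of 6 over 0.1). With the replicate block, 0 core genes passed in control RNA at day 3, where G3BP2 had an adjusted p of 0.05005, and its adjusted p at day 14 was 0.0550. The block gave 1 gene in footprints at day 0 and 59 for the footprint change between days, and a block pairing footprint and RNA libraries gave 4 at day 0 and 1 core gene at day 3 in translational efficiency.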
